A study of Mus musculus with 46 samples.

Results

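Pericentral hepatocytes are the liver cells around the central vein, and 10 genes known to depend on Wnt signalling in these cells are described here across 13 mouse liver libraries: Glul, Axin2, Lgr5, Rhbg, Slc1a2, Lect2, Tbx3, Gulo, Rnf43 and Nkd1. They were picked by symbol, with no threshold on their values, from 55487 genes listed in each file. Earlier results of these data were known when they were chosen. RNA was sequenced from flash-frozen liver in 3 groups labelled by genotype: control (6 libraries), Mfn DKO (4) and Tfam KO (3). Mfn1 and Mfn2 encode the mitofusins, which join mitochondria to each other, and the Tfam protein packages mitochondrial DNA and starts its transcription. The sample descriptions of all 3 liver groups, controls included, carry the letters AAV, which the labels do not write out. Strain, age, sex, the time of sampling, and any Cre driver are not given for the livers in the labels, and titles call the libraries biological replicates without naming animals, so p-values measure the spread between these libraries. The same series holds 33 islet libraries, which enter only where islet levels are named: Tfam control (5 female, 3 male) and Tfam KO (4 female, 2 male), and Clec16a control (6 on a diet labelled HFD, 4 on RFD) and Clec16a KO (5 HFD, 4 RFD), with no diet given for the Tfam islets and no sex for the Clec16a islets.

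Endothelial cells of the central vein release Wnt ligands and R-spondin, and the hepatocytes next to the vein respond through β-catenin. This signal keeps up a pericentral programme of ammonia capture as glutamine, drug metabolism and bile acid synthesis, while urea synthesis and gluconeogenesis are stronger in periportal hepatocytes at the other end of the lobule. Several of the genes are themselves parts of the pathway: Lgr5 receives R-spondin, and Axin2, Rnf43 and Nkd1 are induced by the signal and restrain it.

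The stretches upstream of 3 of the genes are shown: Slc1a2 and Lect2 because their windows hold a match to a Wnt-related motif, and Axin2 because it is the member with no lower mean in either knockout group. The sequences are from RefSeq on GRCm38.p6, on the strand of the gene, 5′ to 3′. RefSeq promoter entries were matched for 6 of the 10 members (Glul, Axin2, Slc1a2, Lect2, Rnf43 and Nkd1), and none was matched for Lgr5, Rhbg, Tbx3 or Gulo. Capitals mark a match to CTTTG followed by AA, AT, TA or TT, short forms of the motif bound by the TCF/LEF factors that carry β-catenin to DNA, searched on both strands. The Lect2 stretch (chr13:56548539-56548788, minus strand) ends just before the RefSeq start of the gene and lies in no gene annotated in GENCODE M21. The Slc1a2 stretch (chr2:102706188-102706355, plus strand) lies inside the gene, before the start that RefSeq lists, and stops where an annotated exon begins. The Axin2 stretch (chr11:108920099-108920348, plus strand) ends just before the start of the gene.
Lect2: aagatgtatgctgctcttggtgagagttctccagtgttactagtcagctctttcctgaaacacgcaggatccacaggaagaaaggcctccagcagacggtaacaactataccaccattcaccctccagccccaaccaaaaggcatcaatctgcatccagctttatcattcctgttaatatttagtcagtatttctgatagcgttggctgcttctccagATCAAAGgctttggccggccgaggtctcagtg
Slc1a2: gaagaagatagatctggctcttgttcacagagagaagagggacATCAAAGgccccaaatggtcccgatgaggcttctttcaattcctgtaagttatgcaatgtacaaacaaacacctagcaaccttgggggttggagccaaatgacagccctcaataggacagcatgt
Axin2: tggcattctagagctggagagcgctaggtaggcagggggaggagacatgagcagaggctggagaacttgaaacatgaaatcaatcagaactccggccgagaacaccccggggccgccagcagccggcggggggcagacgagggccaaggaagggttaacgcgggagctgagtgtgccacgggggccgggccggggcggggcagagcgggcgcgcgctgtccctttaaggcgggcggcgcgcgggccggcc
In the 250 bases before the start, Lect2 and Slc1a2 held 1 match each, to CTTTGAT on the opposite strand, and the windows of the other 4 genes held none. The first base of the match lay 32 bases before the start in Lect2 and 207 bases before it in Slc1a2. Of 32851 promoter windows of the same length in the table, 14.8% held a match, so a match in these letters is common and is given as a description only.

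Total counts per liver library ran from 41961114 to 56894510. Levels are given as CPM, counts per unit of library size, with library sizes scaled by the trimmed mean of M-values (TMM), and comparisons between genes as TPM, a share of all transcripts that takes gene length into account. The targeted transcripts were low in their groups: Tfam was 58.9 ± 4.02 CPM (SD, n = 6) in control and 14.7 ± 1.42 CPM (n = 3) in Tfam KO, Mfn1 was 80.8 ± 7.58 and 20.2 ± 4.30 CPM (n = 4) in control and Mfn DKO, and Mfn2 was 156.7 ± 28.4 and 38.1 ± 5.35 CPM. The hepatocyte genes Alb, Ttr and others of a 14-gene list were detected in every group, with summed levels of 109394 to 160173 CPM in control, 99470 to 119127 CPM in Mfn DKO and 29089 to 115919 CPM in Tfam KO. Tfam KO replicate 2 stood apart, with the highest TMM factor (1.43, against 0.86 to 0.93 in control, 0.99 to 1.04 in Mfn DKO, and 1.16 and 1.04 in the other Tfam KO libraries) and a median of -2.40 for the hepatocyte list relative to the control mean on the log2 scale. Xist, the RNA of the inactive X chromosome, was above 100 CPM in 3 control, 2 Mfn DKO and 2 Tfam KO libraries and under 1 CPM in the others. Since the tissue was sequenced in bulk, fewer pericentral cells and less RNA of a gene per cell cannot be told apart.

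In control liver the members spanned a wide range of abundance per length. Glul, glutamine synthetase, was highest, with a median of 831 TPM and a range over the 6 libraries of 750.1 to 1144 TPM. Gulo, which carries out the last step of vitamin C synthesis, followed at 641 TPM (490.3 to 695), and Lect2, a secreted hepatocyte protein, at 489 TPM (359 to 548). The ranges of Gulo and Lect2 overlapped, and both lay under that of Glul. Slc1a2, a glutamate transporter, stood alone at 39.2 TPM (35.0 to 55.4). The regulators were scarcer: the median was 10.7 TPM for Rnf43, 10.5 TPM for Tbx3, 5.04 TPM for Nkd1, 2.21 TPM for Axin2 and 1.69 TPM for Lgr5, and 1.59 TPM for Rhbg, an ammonium transporter. The ranges of neighbours overlapped from Rnf43 through Tbx3 to Nkd1 and from Axin2 through Lgr5 to Rhbg. Within each control library, however, Nkd1 lay below Rnf43 and Tbx3, and Axin2 lay above Lgr5. The order of Rnf43 and Tbx3, and that of Lgr5 and Rhbg, differed between libraries.

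The first comparison asks what the loss of Tfam, and of both mitofusins, does to these genes in liver. In Tfam KO liver 5 of the 10 members fell against control, namely Glul, Slc1a2, Gulo, Tbx3 and Nkd1, and none rose. The estimate was below 0 for 9 members, as for 47.9% of the 17024 genes tested, and the median log2 fold change of the members was -0.99, against 0.03 over all genes. Of all genes tested, 29.3% were called in this comparison, 11.3% as lower and 18.1% as higher, by edgeR's quasi-likelihood test at a Benjamini-Hochberg adjusted p of 0.05 or less. In Mfn DKO liver 1 member, Nkd1, fell and none rose, where 9.87% of all genes were called, 4.64% as lower and 5.23% as higher. The estimate was below 0 for 8 members, as for 48.2% of all genes, and the members' median was -0.52, against 0.02 over all genes. Both comparisons use the same 6 control libraries, so they are not independent of each other. They also share 1 estimate of the spread over all 3 groups, and the order of the 2 counts depended on it. With only the compared groups in each fit, 5 members were called in Mfn DKO and 3 in Tfam KO. In those fits 27.0% and 19.6% of all genes were called.

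**Figure D1:**
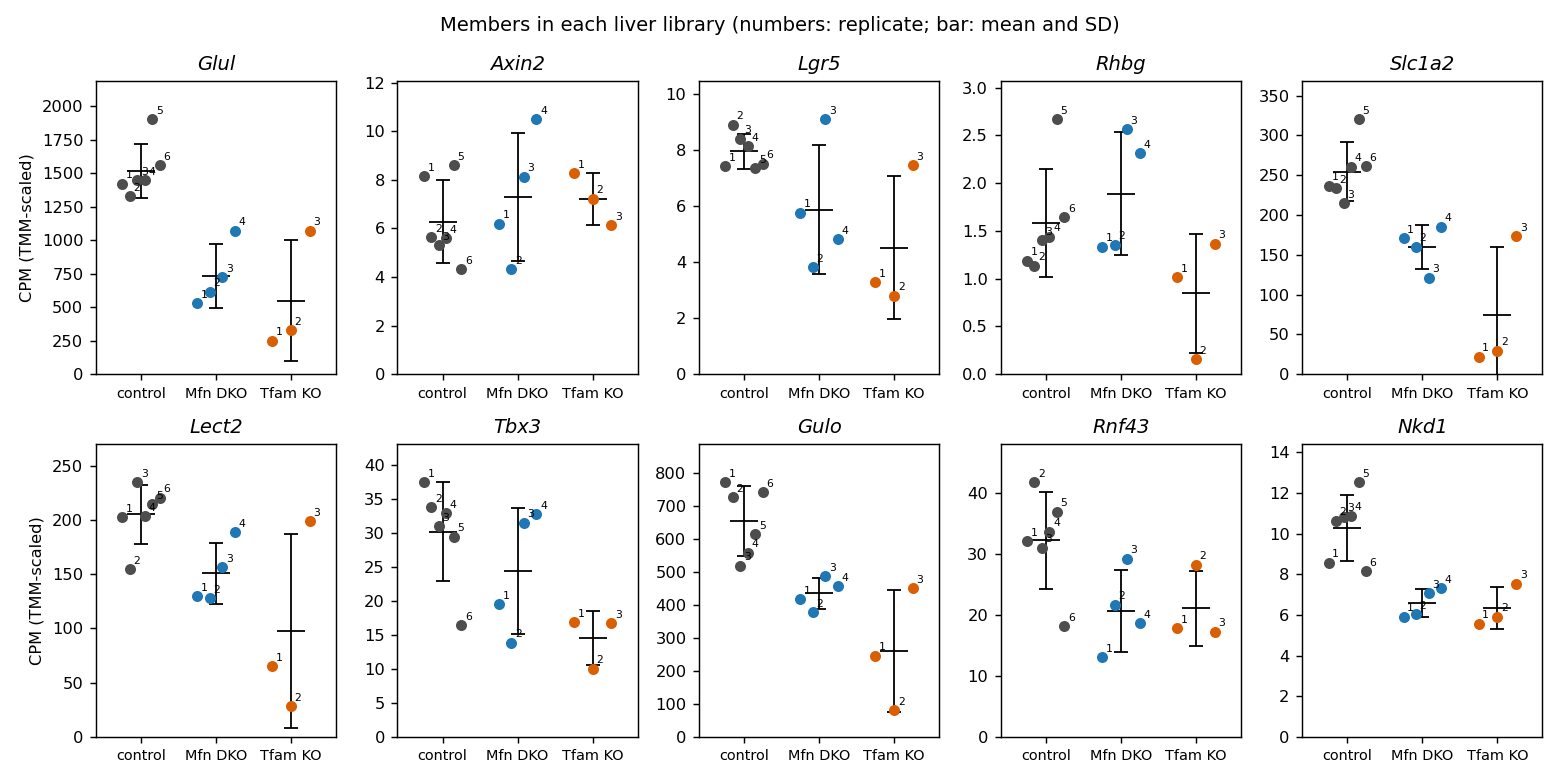
Levels of the 10 members in each of the 13 liver libraries, in TMM-scaled CPM on linear axes from 0; points are libraries numbered by replicate, and the bar and whiskers are the mean and SD of the group (the lower whisker of Slc1a2 in Tfam KO is cut at 0). Glul, Slc1a2, Gulo and Nkd1 are lower in every knockout library than in any control library, and of the Tfam KO libraries replicate 3 lies nearest to the controls in Glul, Slc1a2, Lect2 and Gulo.

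Glul (chr1:153899944-153909723) makes glutamine from glutamate and ammonia in the last rows of hepatocytes before the central vein. Its control libraries ran from 1327 CPM through a median of 1449 to 1905 CPM. The Mfn DKO libraries held 528, 617, 724 and 1073 CPM, and the Tfam KO libraries 249, 330.0 and 1071 CPM. No knockout library reached the lowest control, and each knockout group had 1 library (Mfn DKO replicate 4 and Tfam KO replicate 3) well above its others. In Tfam KO Glul fell by 1.47 on the log2 scale (SE 0.41, 95% interval -2.35 to -0.59, adjusted p = 0.0186, edgeR). In Mfn DKO the estimate was -1.05 (SE 0.36, 95% interval -1.82 to -0.27), 48.4% of the control level, and did not pass (adjusted p = 0.0809, edgeR); with only the control and Mfn DKO libraries in the fit, where 27.0% of all genes were called, it passed, at an adjusted p of 0.00238 by edgeR.

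Slc1a2 (chr2:102658659-102790784), whose product takes glutamate into the same pericentral cells, had the lowest single values relative to control. Control libraries ran from 214 CPM through a median of 249 to 320.2 CPM. The Mfn DKO libraries held 171, 160.2, 121 and 185 CPM, and the Tfam KO libraries 21.8, 29.2 and 173 CPM. Tfam KO replicates 1 and 2 were far below all other livers, and replicate 3 was within the range of the Mfn DKO libraries. Slc1a2 fell by 1.77 in Tfam KO (SE 0.53, 95% interval -2.91 to -0.63, adjusted p = 0.0250, edgeR). In Mfn DKO the estimate was -0.67 (95% interval -1.65 to 0.30, adjusted p = 0.352, edgeR), although its 4 libraries all lay under the 6 controls. With only the compared groups in the fit the Mfn DKO estimate of Slc1a2 passed (adjusted p = 0.00518, edgeR) and the Tfam KO one did not (0.0619).

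Gulo (chr14:65986786-66009207) showed the same arrangement of groups. Its control libraries ran from 518 CPM through a median of 669 to 772 CPM, and the 3 controls with little Xist (726 to 772 CPM) lay above the 3 with high Xist (518 to 613 CPM). The Mfn DKO libraries held 417, 377, 486 and 456 CPM, and the Tfam KO libraries 246, 80.3 and 449 CPM. All 7 knockout libraries were below the lowest control, with Tfam KO replicate 2 the lowest. Gulo fell by 1.34 in Tfam KO (SE 0.38, 95% interval -2.17 to -0.51, adjusted p = 0.0212, edgeR), and the estimate in Mfn DKO was -0.59 (95% interval -1.32 to 0.13, adjusted p = 0.269, edgeR). With only the compared groups, as for Slc1a2, Gulo passed in Mfn DKO (adjusted p = 0.00834, edgeR) and not in Tfam KO (0.0570).

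Nkd1 (chr8:88521354-88594884), a Wnt-induced protein that binds Dishevelled and dampens the signal, was the one member called in both knockout groups. Control libraries ran from 8.15 CPM through a median of 10.7 to 12.5 CPM. The Mfn DKO libraries held 5.91, 6.05, 7.06 and 7.30 CPM, and the Tfam KO libraries 5.57, 5.91 and 7.54 CPM. The knockout groups covered nearly the same range, below all controls. Nkd1 fell by 0.64 in Mfn DKO (SE 0.15, adjusted p = 0.0185, edgeR) and by 0.70 in Tfam KO (SE 0.16, adjusted p = 0.00849, edgeR), and these 2 changes did not differ detectably (difference -0.06, 95% interval -0.43 to 0.32).

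Glul, Slc1a2, Gulo and Nkd1 were the 4 members whose libraries did not overlap control in Mfn DKO, where 10.3% of all genes lay wholly below control, and also the 4 in Tfam KO, where 10.2% did. On the TPM scale, which carries no TMM scaling, the groups overlapped more: Tfam KO replicate 3 entered the control range for all 4 genes (762 TPM for Glul, 35.4 for Slc1a2, 534 for Gulo and 4.45 for Nkd1), all 3 Tfam KO libraries did so for Nkd1, and in Mfn DKO only Glul (highest 743 TPM, lowest control 750.1 TPM) remained apart. With library totals in place of TMM, an alternative added after the data were seen, log2 fold changes moved up by 0.43 in Tfam KO and 0.19 in Mfn DKO; Glul, Slc1a2 and Gulo remained called in Tfam KO, while Nkd1 was called in neither group (adjusted p = 0.197 and 0.0832, edgeR). Calls over all genes were 88.9% and 82.3% higher under that scaling, against 61.6% and 53.0% with TMM.

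Tbx3 (chr5:119670669-119684724), a T-box transcription factor of pericentral hepatocytes, also fell in Tfam KO, but with overlap. Control libraries ran from 16.4 CPM through a median of 31.9 to 37.5 CPM, with replicate 6 apart at the low end. The Tfam KO libraries held 16.9, 9.998 and 16.7 CPM, and the Mfn DKO libraries 19.5, 13.8, 31.5 and 32.8 CPM. Tfam KO was uniformly low, whereas Mfn DKO was split between libraries at and below the usual control level. The change in Tfam KO was -1.06 (SE 0.31, adjusted p = 0.0227, edgeR), a call lost with library totals in place of TMM (-0.67, adjusted p = 0.0731), and the Mfn DKO estimate was -0.31 (95% interval -0.89 to 0.28, adjusted p = 0.488, edgeR). An antisense gene, Tbx3os1, overlaps Tbx3 and averaged 336 counts per liver library against 1215 for Tbx3; the strand setting of the counting is not given in the sources used here, so reads of the pair may be mixed.

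Lect2 (chr13:56542464-56548502) and Lgr5 (chr10:115450311-115587780) differed sharply between Tfam KO libraries and did not pass edgeR's test. Lect2 ran from 154 CPM through a median of 209 to 235 CPM in control and was 65.4, 28.4 and 199 CPM in Tfam KO. Lgr5 ran from 7.34 through 7.82 to 8.90 CPM in control and was 3.28, 2.80 and 7.45 CPM in Tfam KO. For both genes Tfam KO replicates 1 and 2 were below all controls and replicate 3 was among them. The estimates were -1.07 for Lect2 (95% interval -2.01 to -0.14, adjusted p = 0.0769, edgeR) and -0.82 for Lgr5 (95% interval -1.50 to -0.15, adjusted p = 0.0643, edgeR). By the Wald test of DESeq2 both passed (adjusted p = 0.0308 for Lect2 and 0.0310 for Lgr5), as they did by edgeR in the livers with little Xist (0.000882 and 0.00836), where Tfam KO has 1 library whose spread is assumed to be like that of the other groups. In Mfn DKO Lect2 was 129.9, 128, 156 and 188 CPM and Lgr5 was 5.76, 3.81, 9.10 and 4.82 CPM, with adjusted p of 0.473 and 0.330 by edgeR (0.0342 for Lect2 with only the compared groups); 3 of the 4 Mfn DKO libraries were below all controls in Lgr5 and the other was above them.

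Rnf43 (chr11:87662722-87735539), a ubiquitin ligase that removes Wnt receptors from the cell surface, had wide ranges that overlapped in all groups. It ran from 18.1 CPM through a median of 32.9 to 41.8 CPM in control, was 13.1, 21.7, 29.2 and 18.6 CPM in Mfn DKO, and 17.8, 28.2 and 17.3 CPM in Tfam KO. Here control replicate 6 was the low control, as for Tbx3. The estimates were -0.64 in Mfn DKO (95% interval -1.18 to -0.10, adjusted p = 0.116, edgeR) and -0.61 in Tfam KO (95% interval -1.21 to -0.01, adjusted p = 0.111, edgeR). Rhbg (chr3:88242874-88254709) had the lowest counts of the members, at 43 to 141 counts per control library. It was 1.14 to 2.67 CPM in control, 1.33, 1.35, 2.56 and 2.31 CPM in Mfn DKO and 1.02, 0.156 and 1.36 CPM in Tfam KO, where replicate 2 held 12 counts. Its estimates were 0.26 in Mfn DKO (95% interval -0.71 to 1.23) and -0.92 in Tfam KO (95% interval -2.04 to 0.21), with adjusted p of 0.741 and 0.199 by edgeR.

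Axin2 (chr11:108920349-108950783), a scaffold of the complex that degrades β-catenin and a common readout of Wnt signalling in many tissues, did not share the lower levels. It ran from 4.32 CPM through a median of 5.61 to 8.61 CPM in control. The Mfn DKO libraries held 6.18, 4.33, 8.13 and 10.5 CPM, and the Tfam KO libraries 8.27, 7.22 and 6.13 CPM. All 3 Tfam KO libraries lay inside the control range and above its median. The estimates were 0.22 in Mfn DKO (95% interval -0.32 to 0.75, adjusted p = 0.598, edgeR) and 0.20 in Tfam KO (95% interval -0.38 to 0.79, adjusted p = 0.605, edgeR). The lower bounds exclude a fall as large as the estimate for Glul in the same comparison, and the Mfn DKO estimate was -0.03 when replicate 4 of that group was left out.

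**Figure D2:**
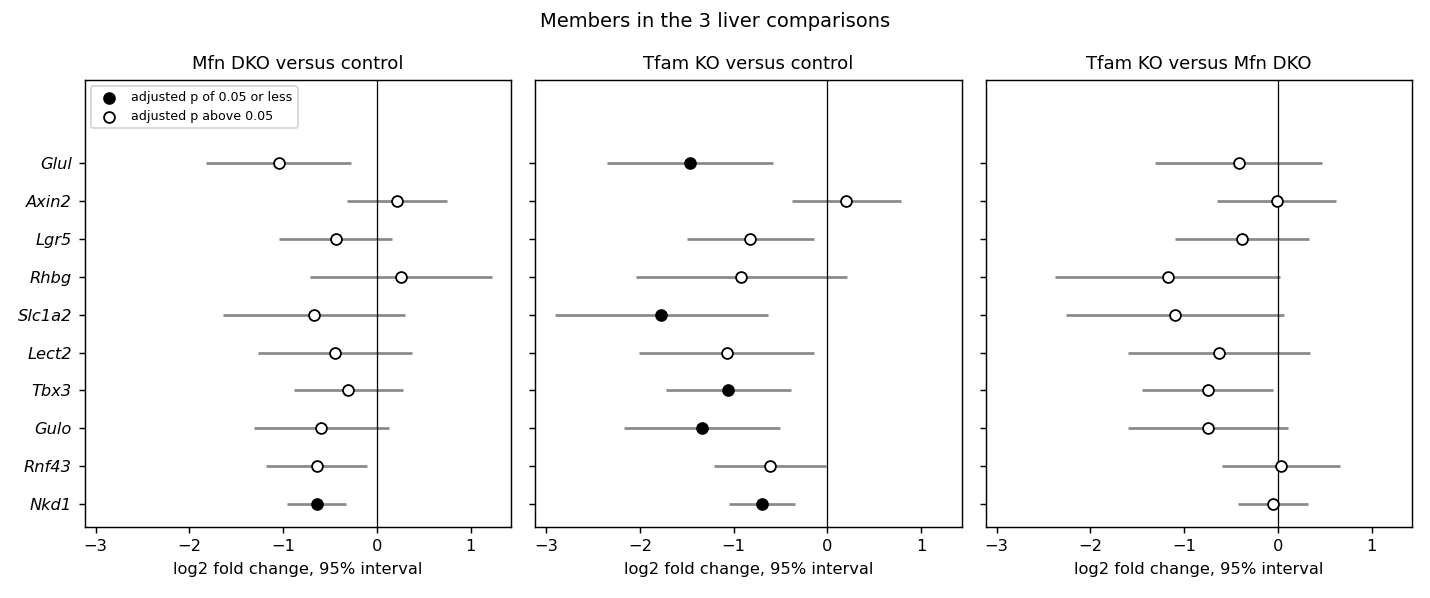
Log2 fold changes of the 10 members in the 3 liver comparisons, with 95% intervals from the edgeR fit; filled points passed an adjusted p of 0.05 and open points did not. Of the intervals against control, those of Axin2 and Rhbg lie on both sides of 0 in both groups. In this fit of all 3 liver groups, 5 genes are filled in Tfam KO against 1 in Mfn DKO.

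The members' calls in Tfam KO rested on 3 libraries that differed among themselves. Relative to the control mean, the median member stood at -1.06, -1.87 and -0.46 on the log2 scale in Tfam KO replicates 1, 2 and 3, and between -0.71 and -0.24 in the 4 Mfn DKO libraries. Without Tfam KO replicate 1, Glul (adjusted p = 0.0686), Slc1a2 (0.0703) and Gulo (0.0702) no longer passed edgeR's test, and without replicate 2 Glul (0.0790), Slc1a2 (0.0961) and Tbx3 (0.109) did not. Without replicate 1 or 2, 2 members were called in each fit, where 19.1% and 14.5% of all genes were. Without replicate 3, 7 members were called, where 41.8% of all genes were: the changes were -2.41 for Glul and -3.34 for Slc1a2, and Lect2 (-2.14, adjusted p = 0.000176) and Lgr5 (-1.41, adjusted p = 0.00165) joined them by edgeR. Nkd1 in Tfam KO was called in all 9 fits that left out 1 library (highest adjusted p = 0.0404, edgeR). In Mfn DKO the call of Nkd1 was lost without replicate 1 (adjusted p = 0.0682, edgeR) or replicate 2 (0.0630).

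**Figure D3:**
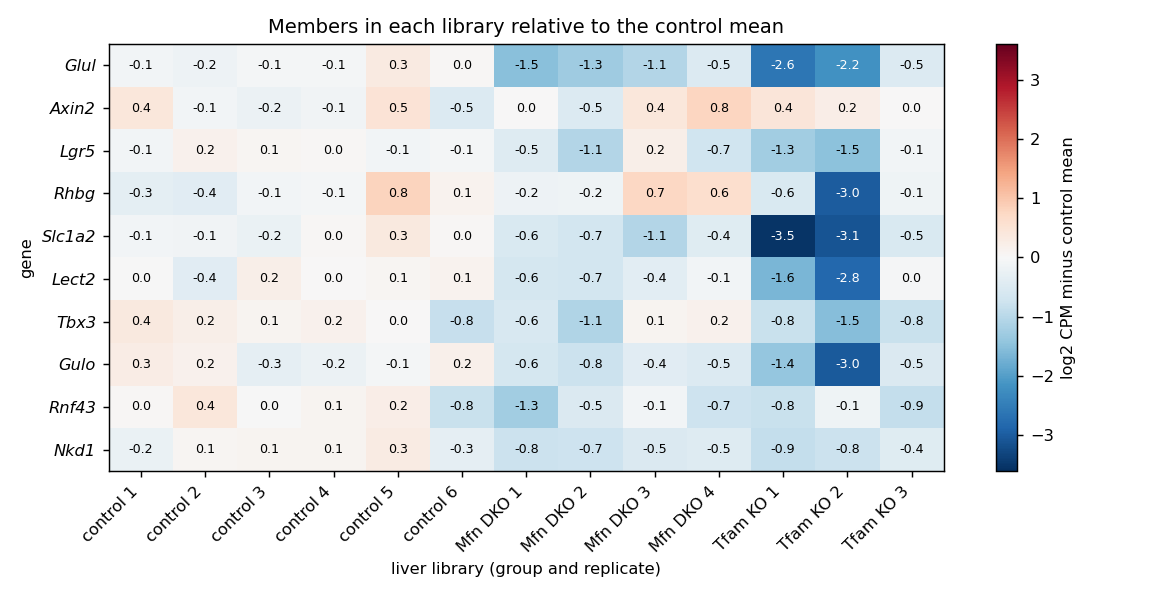
Log2 CPM of each member in each liver library minus the mean of the 6 controls, printed in the cells; rows are genes, columns are libraries by group and replicate, and blue is lower. Slc1a2 stands at -3.53 and -3.11 in Tfam KO replicates 1 and 2 and at -0.54 in replicate 3, beside -1.06 to -0.44 in the 4 Mfn DKO libraries.

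Tfam KO was also set against Mfn DKO directly, to ask whether the members differed between the knockouts. By edgeR 0 members passed, and 1 (Tbx3) had an unadjusted p under 0.05 (0.0367). By the Wald test of DESeq2, which gave no adjusted p for Slc1a2, 0 passed. Of all genes, 0.294% were called by edgeR and 20.4% had an unadjusted p under 0.05. The estimate was below 0 for 9 members, as for 48.7% of all genes. The estimate for Slc1a2 was -1.10 (95% interval -2.26 to 0.07) and that for Gulo -0.75 (95% interval -1.60 to 0.11), so the larger values in Tfam KO than in Mfn DKO are not shown to differ. The result turned on Tfam KO replicate 3: without it 5 members passed edgeR's test, namely Glul (-1.35), Lgr5 (-0.95), Slc1a2 (-2.65), Lect2 (-1.69) and Gulo (-1.41), and 24.0% of all genes were called.

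The rest of the Wnt pathway was read through lists of genes by role. Of 23 Wnt ligands and R-spondins, 10 were expressed enough to be tested. In Mfn DKO 0 of these passed by edgeR, 0 had an unadjusted p under 0.05 and 0 passed the Wald test of DESeq2, with a median of -0.08. In Tfam KO 2 rose and 3 fell, with a median of -0.20. Wnt2, a ligand of central vein and sinusoidal endothelium, fell in Tfam KO from 4.84 ± 0.70 CPM (SD, n = 6) to 2.34 ± 0.66 CPM (n = 3), a change of -1.05 (adjusted p = 0.0111, edgeR), and all 3 libraries (2.61, 1.58 and 2.82 CPM) lay below the lowest control (4.03 CPM). Wnt9b, the other central vein ligand, had adjusted p of 0.528 and 0.398 in the Mfn DKO and Tfam KO comparisons, and Rspo3, the R-spondin of the central vein, 0.446 and 0.262 by edgeR. Wnt4 rose in Tfam KO, but by unequal amounts: the 3 libraries held 10.6, 325 and 4.52 CPM against 1.96 to 4.30 CPM in control, and without replicate 2 the change was 1.23 in place of 5.14. Wnt5a rose (0.91), and Wnt2b (-1.25) and Wnt5b (-1.28) fell. Of these 5 calls, only that of Wnt4 held in every fit without 1 library; the other 4 were among those lost without Tfam KO replicate 2.

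Calls among receptors and signal transducers went in both directions, as they did over all genes. In Tfam KO 18.1% of all genes were called higher and 11.3% lower, and in Mfn DKO 5.23% and 4.64%. Whether these lists depart from those shares was not tested. Of 14 receptors and co-receptors tested, 2 rose and 1 fell in Mfn DKO (median -0.04), and 3 rose and 1 fell in Tfam KO (median -0.13). Fzd8, a Frizzled receptor, fell in both, by 1.53 in Mfn DKO (adjusted p = 0.00648, edgeR) and by 1.63 in Tfam KO (adjusted p = 0.00353, edgeR), in every fit without 1 library. The receptors that rose were Lrp5 (0.51) and Fzd2 (1.77) in Mfn DKO, and Fzd3 (2.35), Fzd9 (1.95) and Fzd6 (1.07) in Tfam KO. None of these 5 calls held in every fit without 1 library, and without Tfam KO replicate 2 the estimates were 0.20 for Fzd3 and 0.23 for Fzd6. Lgr4, the more abundant relative of Lgr5, did not pass (adjusted p = 0.881 in Mfn DKO and 0.0904 in Tfam KO, edgeR). Of 25 genes of signal transduction, 0 passed in Mfn DKO by edgeR (6 at an unadjusted p under 0.05, 1 by the Wald test; median 0.08), and 4 rose and 2 fell in Tfam KO (median 0.23). Csnk1a1 (0.62), Csnk1e (1.07) and Tnks2 (0.49), a pair of casein kinases and a tankyrase, rose in every fit without 1 library, and Bcl9l (-0.54) and Tcf7l2 (-0.38), partners of β-catenin in transcription, fell, calls that held in 8 and 3 of the 9 fits without 1 library. Ctnnb1, which encodes β-catenin itself, was 209 ± 12.6, 195 ± 11.9 and 249.7 ± 64.4 CPM in control, Mfn DKO and Tfam KO and did not pass in either comparison (adjusted p = 0.646 and 0.191, edgeR).

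Of 16 inhibitors tested, 1 rose and 3 fell in Mfn DKO (median -0.01), and 2 rose and 4 fell in Tfam KO (median -0.07). Notum, a secreted enzyme that inactivates Wnt ligands and is itself a pericentral Wnt target, was 26.5 to 48.1 CPM in control, 19.4, 22.7, 28.0 and 27.2 CPM in Mfn DKO and 10.2, 0.9998 and 20.3 CPM in Tfam KO. Its Tfam KO libraries were all below control, and it fell by 1.81 (adjusted p = 0.0386, edgeR), a call lost without Tfam KO replicate 1 and without 5 of the 6 controls in turn; the Mfn DKO estimate was -0.59 (adjusted p = 0.474, edgeR). Tle2, a co-repressor, fell by 0.86 in Mfn DKO and by 1.56 in Tfam KO, and Wif1, a secreted Wnt-binding inhibitor present at 0.902 CPM in control, fell by 3.22 and 2.73. The calls of Tle2 in Mfn DKO (1 of 10 fits) and of Wif1 (9 of 10 in Mfn DKO and 7 of 9 in Tfam KO) did not hold in every fit without 1 library, whereas that of Tle2 in Tfam KO did. Znrf3, the partner of Rnf43, had estimates of 0.40 and 0.41 that did not pass (adjusted p = 0.0998 and 0.0705, edgeR). Of 8 other general Wnt targets tested, 1 fell in Mfn DKO (Tnfrsf19, -0.78) and 1 rose in Tfam KO (Myc, 2.44), neither of them in every fit without 1 library, and Sp5 did not pass in either (adjusted p = 0.469 and 0.100, edgeR).

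**Figure D4:**
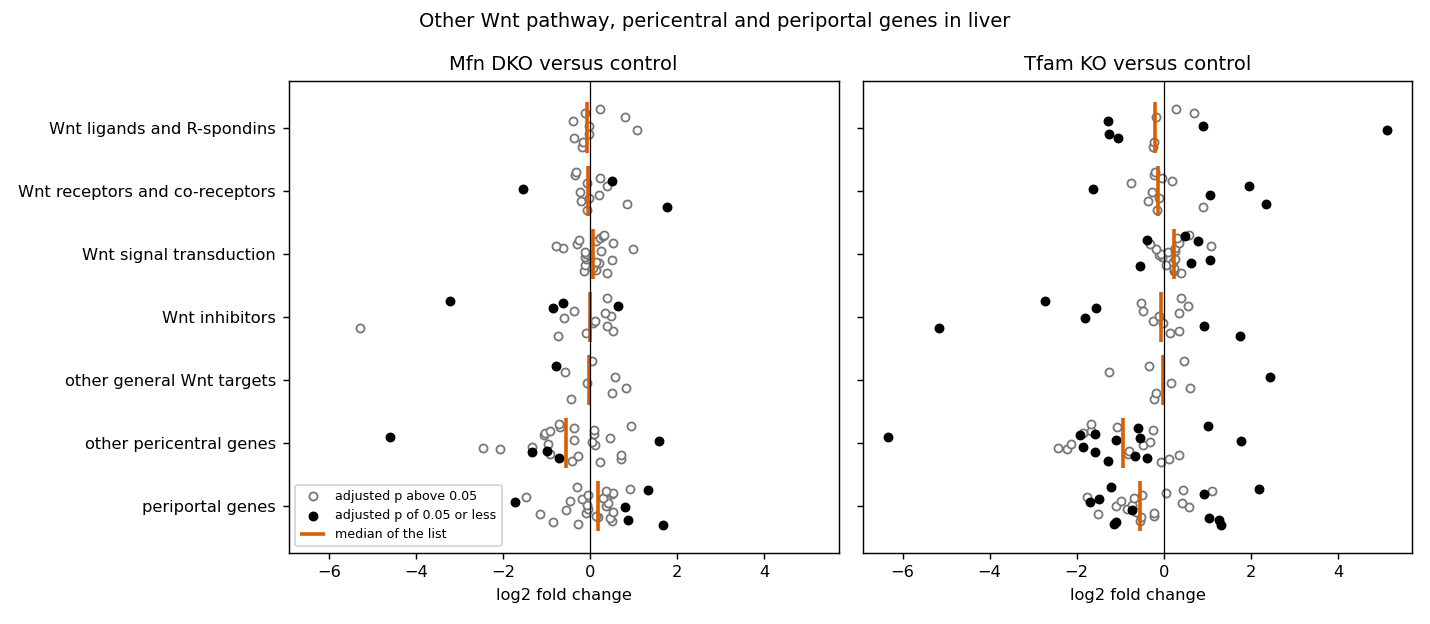
Log2 fold changes of the tested genes of 7 lists in Mfn DKO and Tfam KO against control, one point per gene, filled where the adjusted p was 0.05 or less, with the median of each list as a bar. The 5 Wnt pathway lists have medians between -0.20 and 0.23, whereas the other pericentral genes have medians of -0.56 and -0.94. The periportal genes have medians of 0.18 in Mfn DKO and -0.55 in Tfam KO.

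Pericentral genes outside the member list were also more often lower than higher. Of 28 tested, 4 fell and 1 rose in Mfn DKO (median -0.56), and 11 fell and 2 rose in Tfam KO (median -0.94). Cyp2e1, a cytochrome P450 of ethanol and drug metabolism, was 7619 to 12038 CPM in control, 3995, 2621, 4569 and 3738 CPM in Mfn DKO and 2787, 235 and 4796 CPM in Tfam KO. All knockout libraries were below control; Cyp2e1 fell by 1.86 in Tfam KO (adjusted p = 0.0407, edgeR), a call that held in 2 of the 9 fits without 1 library, and the Mfn DKO estimate of -1.34 did not pass (adjusted p = 0.130, edgeR). Cyp27a1, of bile acid synthesis, fell in both, by 1.32 (adjusted p = 0.00924) and 1.59 (adjusted p = 0.00287, edgeR). Oat, which converts ornithine in the same cells as Glul, was called in Tfam KO: its libraries held 135, 124 and 436 CPM against 637 to 807 CPM in control (-1.59, adjusted p = 0.00604, edgeR), while the Mfn DKO libraries, at 676 to 871 CPM, overlapped control (0.09, adjusted p = 0.869). Oat did not pass between the knockouts (-1.68, adjusted p = 0.0784, edgeR). Cyp1a2 did not pass (adjusted p = 0.311 and 0.343, edgeR). Its controls with little Xist held 629.9 to 768 CPM, and those with high Xist 323 to 359.8 CPM. Mfn DKO libraries held 261 and 393 CPM with little Xist and 210.0 and 219 CPM with high Xist. Tfam KO libraries held 584 CPM with little Xist and 29.1 and 260.4 CPM with high Xist. Each knockout library thus lay below the controls of its own Xist class. Gstm3, a glutathione transferase, rose in both (1.58 and 1.77).

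Periportal genes, from the other end of the lobule, had a median above 0 in Mfn DKO but below 0, like the members, in Tfam KO. Of 29 tested, 4 rose and 1 fell in Mfn DKO (median 0.18), and 5 rose and 6 fell in Tfam KO (median -0.55). Aldh1b1 rose in both (1.67 and 1.32), and Arg1 and Asl, of the urea cycle, fell in Tfam KO (-1.15 and -1.10), though not without Tfam KO replicate 1. Cyp2f2 (adjusted p = 0.185 and 0.0756, edgeR) and Hal (0.915 and 0.166) did not pass. Cyp2f2 was 623 to 775 CPM in controls with little Xist and 265 to 313 CPM in those with high Xist. Mfn DKO libraries held 159.6 and 247.8 CPM with little Xist and 247.2 and 247.6 CPM with high Xist. Tfam KO libraries held 290.2 CPM with little Xist and 25.3 and 206 CPM with high Xist. Hal overlapped, at 268 to 481 CPM in control and 274 to 398 CPM in Mfn DKO. The 14 hepatocyte genes had 0 calls in Mfn DKO by edgeR (4 at an unadjusted p under 0.05, 2 by the Wald test; median -0.29) and 5 lower calls in Tfam KO (median -0.85), among them Ttr (-1.35) and Apoa1 (-1.63, not without Tfam KO replicate 1). By library the hepatocyte median was -1.11, -2.40 and -0.37 in Tfam KO replicates 1, 2 and 3, beside -1.06, -1.87 and -0.46 for the members in the same libraries. The part of this wider hepatocyte shift in the members' lower levels was not tested.

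**Figure D5:**
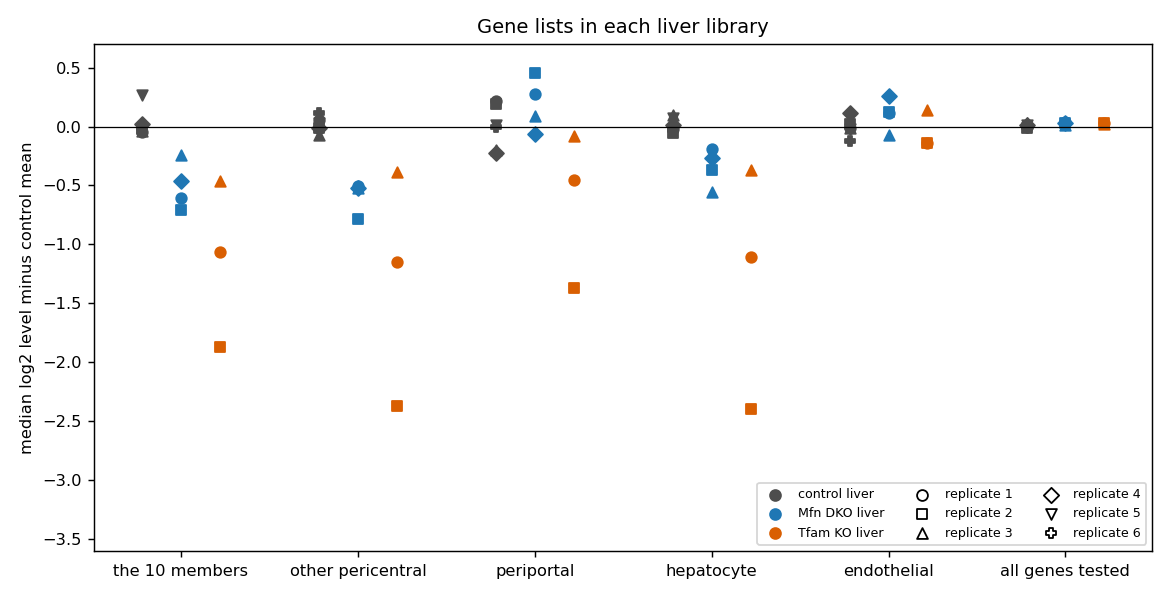
Median log2 level of each gene list relative to the control mean in each liver library; colour gives the group and the symbol the replicate. In Tfam KO the members, the other pericentral genes, the periportal genes and the hepatocyte genes are all lowest in replicate 2 and highest in replicate 3, while the endothelial list stays between -0.14 and 0.14 and all genes tested between 0.02 and 0.03.

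Markers of other cells were measured beside these results. The 17 endothelial genes summed to 436 to 507 CPM in control, 443 to 632 CPM in Mfn DKO and 422 to 530.2 CPM in Tfam KO, with 0 calls in Mfn DKO by edgeR (3 at an unadjusted p under 0.05, 0 by the Wald test) and 1 in Tfam KO (Lyve1, 1.91 higher on the log2 scale, but 0.55 and not called without Tfam KO replicate 2). Of 12 genes of dividing cells, 11 rose in Mfn DKO (median 2.30) and 9 rose in Tfam KO (median 1.41), for example Mki67 from 2.57 CPM in control to 12.8 and 6.96 CPM. Of these calls, 9 of 11 in Mfn DKO and 3 of 9 in Tfam KO held in every fit without 1 library. Their summed level was 10.3 to 19.9 CPM in control, 39.0 to 95.2 CPM in Mfn DKO and 25.8 to 34.6 CPM in Tfam KO. Summed levels of 12 Kupffer cell genes were 671 to 1268, 880 to 1921 and 429 to 1257 CPM, with Marco the gene that rose in both (in Tfam KO not without replicate 2). The estimate was below 0 for 0 of the 12 Kupffer cell genes in Mfn DKO (median 0.44). In Tfam KO it was below 0 for 10 of them (median -0.38), so Marco ran against most of the list there. Stellate cell genes (13) summed to 401 to 505, 488 to 631 and 376 to 489 CPM, with 3 rises in Mfn DKO and 1 rise and 1 fall in Tfam KO. Cholangiocyte genes (11) summed to 57.6 to 96.5, 84.4 to 138 and 61.6 to 197 CPM, with Krt23 rising in both, and lymphocyte genes (12) summed to 27.5 to 41.1, 31.9 to 54.1 and 8.99 to 49.3 CPM, with a fall of Cd4 in Tfam KO that held in 3 of 9 fits without 1 library. The lists of male-biased and female-biased liver genes (10 each) had 0 calls in either comparison by edgeR or the Wald test, with 1 gene of each list at an unadjusted p under 0.05 in Mfn DKO and 0 in Tfam KO. Male-biased genes had medians of -1.60 in Mfn DKO and -2.10 in Tfam KO, with 9 and 10 of 10 estimates below 0. Female-biased genes had medians of -0.07 and -0.84, with 5 and 8 below 0. In control the male-biased and female-biased lists summed to 160.4 to 11853 and 81.3 to 4283 CPM, a wide spread between libraries. The 0 calls therefore do not show unchanged levels. No gene of these lists was at 0 throughout a group, and the part of these cells in the members' values was not tested.

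Among 9849 genes with a mean of at least 5 CPM, those whose profile over the 13 livers was nearest to that of Glul were D630039A03Rik, Bphl, Gstt1, Cd1d1 and Mfsd4b1, at a root mean square difference of 0.30 to 0.34 on the log2 scale after centring on the control mean. The nearest member was Slc1a2 at 0.49, followed by Lect2 at 0.52 and Gulo at 0.56, and the farthest was Axin2 at 1.33. The genes nearest to Axin2 were Parp11, Gprasp1, Lrig2, Appl2 and Stat5a, at 0.27 to 0.29, and its nearest member was Nkd1 at 0.72. All these points share the same libraries and scaling, and the values are a description.

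In the islet libraries, in which the members were not tested, Glul was the most abundant member. Islet levels are in TPM, which carries no TMM scaling, and the share of all genes lying apart between islet groups was not computed. The level of Glul was 245 to 423 TPM in 8 Tfam control islet libraries and 479.8 to 681 TPM in 6 Tfam KO islet libraries. These did not overlap, and Tfam KO was the higher. In liver the TPM median was lower in Tfam KO (363) than in control (831). The liver ranges overlapped, at 206 to 762 TPM in Tfam KO and 750.1 to 1144 TPM in control. The islet ranges pool the sexes. In females Glul was 245 to 423 TPM in control and 513 to 681 TPM in Tfam KO islets. In males it was 330.5 to 376 and 479.8 to 512 TPM. It was 223 to 352 TPM in 10 Clec16a control and 111 to 202 TPM in 9 Clec16a KO islet libraries, again without overlap. These pool the diets: on HFD Glul was 264 to 352 TPM in control and 140.3 to 202 TPM in Clec16a KO, and on RFD 223 to 347 and 111 to 139.7 TPM. Axin2 was 3.56 to 6.10 TPM in Tfam control and 5.37 to 7.87 TPM in Tfam KO islets, above its control liver levels. Slc1a2 and Lect2 stayed under 0.25 TPM in every islet library.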

How the data were processed

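The deposited files give, per the file headers, a raw count, TPM and CPM for each gene and library; the counts, all whole, entered the tests without change, TPM only to compare genes, and the authors' CPM not at all. The submitters' processing notes name STAR 2.6.1b, RSEM 1.3.1, featureCounts, DESeq2 and the build GRCm38; which program made the counts, the annotation and the strand setting are not given in the sources used here. Of 55487 identifiers, 55141 were found in GENCODE M21, from which gene positions were taken.

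The 13 liver libraries were fitted together in R 4.3.3 with edgeR 4.0.16 (TMM, filterByExpr, quasi-likelihood F-test, 1 mean per group, two-sided), with Benjamini-Hochberg adjustment over the 17024 genes tested; a gene was called at 0.05 or less. CPM in the text were recomputed on TMM-scaled library sizes, and centred log2 CPM used a prior count of 2. The procedure was also run on counts simulated from the control means and the spread of this fit. That simulation held no outlying library and no difference by Xist, so it does not bear on those features here. Depths are given in the report; no molecular identifiers are named in the labels, so read numbers bear on counting error only. Replicates in a group differed by more than sampling noise (lowest chi-square per degree of freedom 38.3).

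Alternatives were DESeq2 size factors, the Wald test of DESeq2 1.42.0, 2 other count filters, the Xist level as a covariate or a split at 100 CPM, only the compared groups, a replicate block, each library left out in turn, and total counts, added after the data were seen. The genes named are the 10 members, the targeted genes, 13 genes of the pathway and zonation named in every case, and from each list at most 4 called genes per direction (3 for cell type lists) with the smallest adjusted p. Members and lists were chosen with earlier results of these data known. Islet libraries were not tested here.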

Additional observations from a re-analysis of the deposited data

Results flagged for a closer look

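Among 20 groups of 4 or more libraries tested, 1 held a member's value far from the others. Rhbg was 2.67 CPM in control liver replicate 5, while the other 5 controls lay between 1.14 and 1.64 CPM, and the gap to the nearest library was 0.671 of the whole range. Chance gives such a gap in about 1 of 20 groups.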

How the results depend on the processing

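Members were called in Mfn DKO against control (1 in the report) 0 times with total counts in place of TMM, 0 with the replicate block, 0 with only libraries of Xist above 100 CPM (2, 4 and 2 at an unadjusted p under 0.05, edgeR), 3 with only the others, 5 with only the compared groups (Glul, Gulo, Lect2, Nkd1 and Slc1a2) and 2 by the Wald test of DESeq2 (Glul and Nkd1). Genes called there were 2009 (11.8% of those tested) with total counts and 169 (0.993%) with the replicate block. In the Xist subsets they were 2 (0.0117%) and 4294 (24.8%). With only the compared groups they were 4338 (27.0%), and by the Wald test 2745 (8.82% of the genes with an estimate). Genes tested numbered 17024 with total counts or the block, and 17118 and 17345 in the Xist subsets. With only the compared groups they numbered 16080 in Mfn DKO, 16449 in Tfam KO and 16302 between the knockouts. By the Wald test 31126 genes had an estimate, but not all of these had an adjusted p. In Tfam KO against control (5 members, 4992 genes) the members called were 3 with total counts, 0 with the block, 0 with high Xist, 3 with only the compared groups (Glul, Nkd1 and Tbx3), 6 with low Xist and 6 by the Wald test (both add Lect2 and Lgr5), and the genes called 8154, 395, 0, 3228, 5894 and 5820; 8 members had an unadjusted p under 0.05 with the block and 3 with high Xist (3489 genes), in edgeR. Between the knockouts (0 members, 50 genes) the genes called were 27 with at least 10 counts in every library, 1226 with total counts, 6 with the block, 2 and 2467 in the Xist subsets, 7 with only the compared groups and 1018 by the Wald test, and 5 members were called with low Xist, where Tfam KO has 1 library, assumed to vary like the other groups. The Wald test gave no adjusted p for Slc1a2, which could therefore not be called by it.

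Leaving out 1 library gave 686 to 1444 genes and 0 to 1 members in Mfn DKO, 2504 to 7330 genes and 2 to 7 members in Tfam KO, and 24 to 4204 genes and 0 to 5 members between the knockouts. Some estimates changed sign, none of them called in the report. Rhbg in Mfn DKO was -0.0041 with high Xist and Axin2 -0.028 to 0.40 over left-out libraries. Between the knockouts Axin2 was 0.23 with total counts, 0.10 with the replicate block, 0.21 with low Xist and -0.20 to 0.21 over left-out libraries. Rnf43 was -0.011 with the Xist covariate, -0.25 with low Xist and -0.23 to 0.25 over left-out libraries. Nkd1 was 0.17 with total counts, 0.011 with high Xist and -0.20 to 0.028 over left-out libraries, and Lgr5 was 0.25 with high Xist. DESeq2 size factors and both count filters kept the call and direction of the members in all 3 comparisons. Correlations of same-numbered residual profiles ran from -0.34 to 0.35 (median 0.0873), and differently numbered libraries were not compared in this way. Whether replicate numbers pair the libraries was therefore not settled. With the replicate block 0 members were called in either comparison against control, a limit on the calls in the report. Mean and median TPM in control differed by less than 1 SD for the 10 members.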
